A study of Homo sapiens with 12 samples.

Results

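The data set holds the total RNA of 3 ovarian cell lines, and the genes described here are 10 kallikrein-related peptidases, KLK5 to KLK14, of 61533 genes in the files. They were chosen by name after their levels in these same libraries had been seen, and the gene-level values of all 3 comparisons between the lines were in view. Their levels are therefore given as a description, without a test. Tests are given for genes outside this set, and the lists of those genes were also chosen with earlier results of these data known. The 7 neighbouring genes of this set, KLK5 to KLK11, were found in all 4 PEO-4 libraries, at means of 1.53 to 281 CPM (counts relative to library size, scaled with TMM factors), and were at 0 or close to it in SKOV-3 and T1074. KLK12, KLK13 and KLK14, the next genes along the chromosome, had 16 counts or fewer in any line.

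Kallikrein-related peptidases are secreted serine peptidases whose genes lie side by side in a single cluster on chromosome 19. They are made as inactive proenzymes, and removal of a short propeptide, often by another member of the family or by another trypsin-like protease, makes them active. In the upper layers of skin KLK5, KLK7 and KLK14 cut the proteins that hold corneocytes together, and the inhibitor LEKTI, the product of SPINK5, restrains them. KLK6, KLK7, KLK10 and others of the family have long been studied as tissue and serum markers in ovarian carcinoma.

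PEO-4 was derived from the ascites of a high-grade serous ovarian carcinoma after the tumour had become clinically resistant to chemotherapy. SKOV-3 is an ovarian carcinoma line that the study describes as clear cell and the sample labels as serous cystadenocarcinoma. T1074 consists of ovarian epithelial cells immortalized with SV40, and the labels give all 3 lines a wild-type genotype. Each line is a single cell line grown in a medium of its own with serum, so line and medium cannot be told apart, and 4 libraries were made per line. Nothing says that the 4 came from separate cultures, so the p-values below measure only the spread between these libraries, which may be technical.

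Total expected counts per library were between 38690954 and 47148161 in PEO-4, between 47340136 and 55739060 in SKOV-3 and between 19780836 and 38583368 in T1074. A floor of 3 counts corresponded to 0.0645 to 0.0879 CPM in PEO-4, 0.0576 to 0.0642 CPM in SKOV-3 and 0.0687 to 0.151 CPM in T1074, where replicate 1 was the shallowest. Summed over 8 epithelial markers, the level was 2970 to 4290 CPM in PEO-4, 973 to 1850 CPM in SKOV-3 and 713 to 1940 CPM in T1074. The T1074 sum was mostly KRT8 and KRT18, at means of 616 and 328 CPM, with EPCAM and CDH1 at 0.0964 and 0.354 CPM. Against T1074, 6 of the 8 were higher in PEO-4 and 2 did not pass. Over 7 mesenchymal markers the summed level was 65.8 to 102 CPM in PEO-4, 1030 to 2520 CPM in SKOV-3 and 911 to 1990 CPM in T1074. Most of the PEO-4 sum was THY1, at 62.5 to 98.0 CPM, against 27.1 to 70.6 CPM in T1074. THY1 was the 1 marker of the 7 called higher in PEO-4 than in T1074, and 6 were lower. The sum over 7 carcinoma and Mullerian markers was 1260 to 1440 CPM in PEO-4, against 178 to 225 CPM in SKOV-3 and 28.7 to 61.7 CPM in T1074. Of the 7, 6 were higher in PEO-4 than in T1074. SOX17 was lower, at means of 0.794 CPM in PEO-4, 76.1 in SKOV-3 and 4.57 in T1074. These marker levels differ between the lines together with the genes below, and their part in the results was not tested. Leukocyte, endothelial and erythroid markers summed to at most 2.01, 1.25 and 0.15 CPM in any PEO-4 library, and the leukocyte marker PTPRC and the erythroid marker HBB were at 0 in all 4. T1074 replicate 2 held several genes that were at 0 in the other T1074 libraries, and KLK5 to KLK9 were at 0 in it as well. In bulk RNA, fewer expressing cells and less RNA per cell cannot be told apart.

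KLK7, a chymotrypsin-like peptidase, had the highest level of the family. It was at 268, 280, 296 and 281 CPM in PEO-4 replicates 1 to 4, against a single count in the 4 SKOV-3 libraries and 0 in the 4 T1074 libraries. KLK7 took 57.3% ± 0.690 (SD, n = 4) of the summed CPM of the 10 genes in PEO-4, and by its mean of 46.5 TPM (the level scaled by transcript length and library) it was at rank 347 of 19985 protein-coding genes.

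KLK5, a trypsin-like peptidase that can activate the proenzymes of KLK7 and of other members, was at 58.9, 57.8, 66.9 and 59.6 CPM in PEO-4 replicates 1 to 4 and at 0 in every library of SKOV-3 and T1074. KLK8, also called neuropsin, was at 48.4, 56.5, 70.2 and 51.7 CPM in PEO-4, against 1 count in all of SKOV-3 and 0 in T1074. KLK6, a trypsin-like peptidase abundant in the central nervous system, was at 51.5, 39.2, 27.3 and 53.0 CPM in PEO-4, with no count in SKOV-3 or T1074. None of these ranges in PEO-4 came near those of the other lines.

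KLK10, first described as a gene of normal epithelial cells that is lost in breast cancer lines, was at 40.5, 46.7, 58.7 and 38.3 CPM in PEO-4. It was the only one of the 10 genes above 0 in all 12 libraries, with 3, 6, 2 and 3 counts in SKOV-3 and 1, 2, 2 and 8 counts in T1074. The PEO-4 mean was 660-fold that of SKOV-3 (95% counting interval 393 to 1210) and 517-fold that of T1074 (302 to 971), intervals that cover counting error only. Of the 13 counts in T1074, 8 came from replicate 4, without which the T1074 mean was 0.0483 CPM, against 0.086 CPM with it.

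KLK9 and KLK11 were far lower, at means of 1.62 and 1.53 CPM in PEO-4. KLK9 was at 1.04, 1.98, 2.39 and 1.07 CPM in PEO-4, with no count in the other lines. KLK11, a trypsin-like peptidase first found in brain, was at 0.849, 1.62, 2.75 and 0.887 CPM in PEO-4, against 1, 1, 0 and 0 counts in SKOV-3 and 0, 4, 0 and 0 counts in T1074. All 4 T1074 counts of KLK11 came from replicate 2, at 0.0916 CPM, below every PEO-4 library.

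KLK12, KLK13 and KLK14 did not pass the filter on low counts. KLK14, another trypsin-like peptidase of skin, had 2, 4, 8 and 2 counts in PEO-4, none in SKOV-3 and 1, 0, 1 and 0 counts in T1074. KLK13 had 2, 2, 6 and 4 counts in PEO-4 and KLK12 had 0, 2, 1 and 0, with 1 count each in T1074 and none in SKOV-3. Over the 4 PEO-4 libraries the totals were 3 counts for KLK12, 14 for KLK13 and 16 for KLK14, and since most of these libraries lay at or near the floor, no fold is given. Of the genes that passed, the lowest total in PEO-4 was that of KLK11, 265 counts, and the highest of those that did not was that of KLK14, 16 counts.

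**Figure D1:**
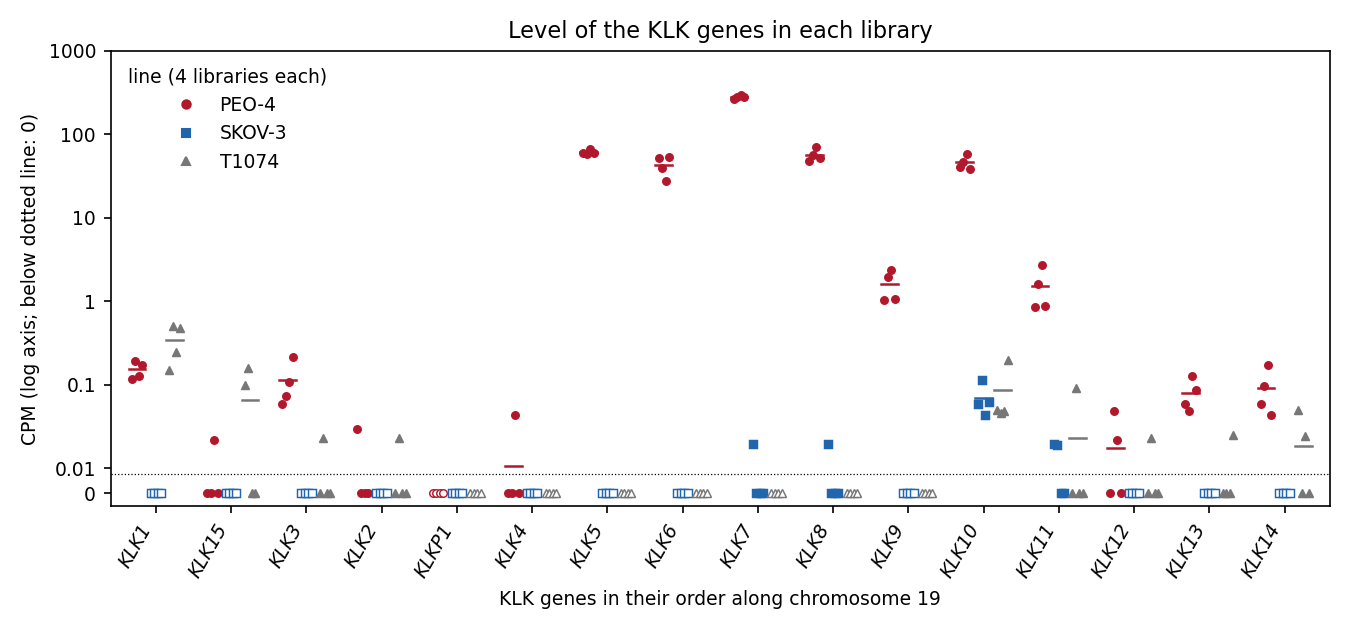
Level of each KLK gene in CPM on a log axis, with 0 drawn below the dotted line, for the 4 libraries of PEO-4, SKOV-3 and T1074. Genes stand in their order along chromosome 19, points are libraries and bars are means of at least 0.01 CPM. KLK5 to KLK11 form an unbroken run of genes at means of 1.53 to 281 CPM in PEO-4, with genes near 0 on both sides.

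Against a line at 0, a level can only be given as a lower bound, taken here against 3 counts per library. KLK5 was at least 1010-fold higher in PEO-4 than in SKOV-3 and at least 662-fold higher than in T1074. KLK6 was at least 707-fold and at least 466-fold higher, and KLK9 at least 26.8-fold and at least 17.7-fold. KLK8 was at least 617-fold above T1074. With 1 count in SKOV-3, KLK7 had a ratio of 56200 (95% counting interval 10100 to 2220000) and KLK8 one of 11400 (2040 to 450000), so these ratios are known only in order of magnitude.

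In the fit of all genes, the 7 genes that passed the filter were all past the threshold (adjusted p under 0.05, edgeR) and higher in PEO-4 than in T1074, where 36.3% of all 19898 genes tested were called higher and 37.8% lower. All 7 were likewise called higher in PEO-4 than in SKOV-3, where 38.5% of the genes tested were called higher and 36.7% lower. Since these comparisons chose the genes and share the PEO-4 libraries, nothing is read from those counts. In SKOV-3 against T1074, 33.3% of all genes tested were called higher and 34.5% lower. The 7 genes passed the filter through PEO-4 and held at most 14 counts in SKOV-3 and 13 in T1074, so that comparison says nothing about them.

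Compared per length, the order in PEO-4 was KLK7, KLK8, KLK5, KLK6, KLK10, KLK11 and KLK9. KLK7 lay at 36.1 to 54.4 TPM and KLK8 at 28.8 to 51.5 TPM, and although these ranges overlapped, KLK7 was above KLK8 in each of the 4 libraries. KLK5 followed at 10.3 to 16.1 TPM, below every KLK8 value. KLK6, at 6.10 to 10.8 TPM, and KLK10, at 5.78 to 11.2 TPM, changed places between libraries, with KLK6 above KLK10 in 2 of 4. KLK11, at 0.230 to 0.870 TPM, and KLK9, at 0.190 to 0.640 TPM, did so as well. KLK8 stood close to KLK7 in TPM but at 56.7 against 281 CPM, since RSEM assigned much of KLK8 to short transcripts. Per kb of the longest transcript of each gene, a scale chosen after the data were seen, KLK7 was at 142 ± 5.98 CPM and KLK8 at 42.8 ± 7.25 (SD, n = 4).

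The members did not spread alike among the PEO-4 libraries. KLK7 and KLK5 varied least, with a coefficient of variation of 4.19% and 6.78% of the mean CPM, and KLK9 and KLK11 most, with 41.4% and 58.3%. Of the 7 genes, 6 were highest in PEO-4 replicate 3, where KLK11 reached 1.80 times and KLK10 1.28 times its line mean. KLK6 went the other way and was lowest in replicate 3, at 0.639 times its mean, and highest in replicate 4, at 1.24 times. KLK8, KLK9, KLK10 and KLK11 were each higher in replicates 2 and 3 than in replicates 1 and 4, and KLK6 was lower in replicates 2 and 3. The groups of libraries are not labelled as batches, and these differences were not tested.

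**Figure D2:**
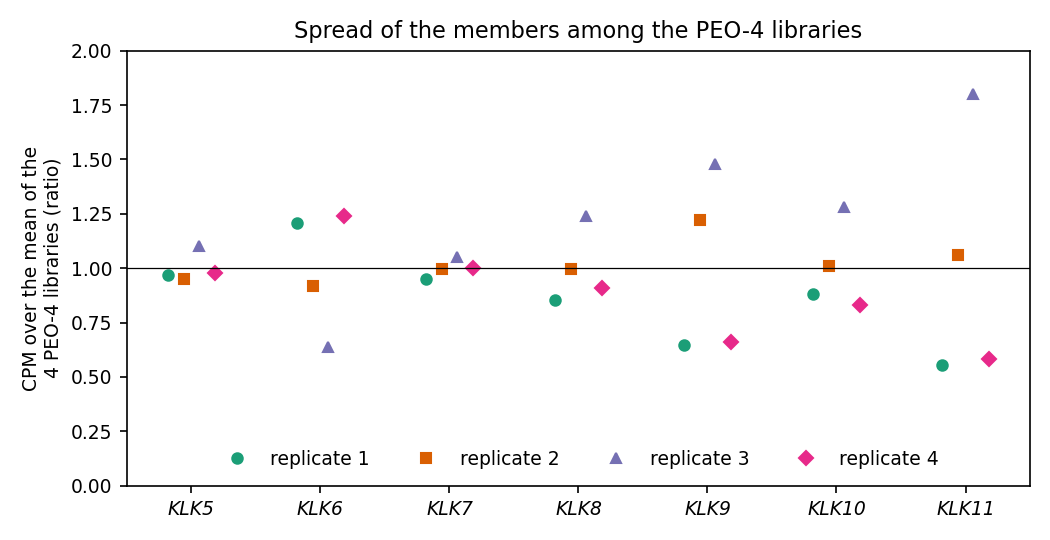
CPM of each of the 7 members that passed the filter in the 4 PEO-4 libraries, divided by the mean of the line, with 1 marker per replicate. KLK7 stays between 0.951 and 1.05 times its mean, KLK11 lies between 0.557 and 1.80 times, and KLK6 is lowest in replicate 3, where the other genes are highest.

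All 10 genes lie on the minus strand of chromosome 19 of GRCh38, so KLK14 comes first in the direction of transcription and KLK5 last. KLK5 spans 50943303 to 50953093, KLK6 50958631 to 50969673, KLK7 50976468 to 50984099 and KLK8 50996007 to 51002711. KLK9 spans 51002508 to 51009634, KLK10 51012739 to 51020175 and KLK11 51022216 to 51028039, followed by KLK12 from 51029092 to 51035230, KLK13 from 51055626 to 51065114 and KLK14 from 51077495 to 51084245. KLK8 and KLK9 overlap on the same strand, and a read-through gene of the pair, ENSG00000269741, held 28.6 counts over the 4 PEO-4 libraries and none elsewhere. RSEM divided shared reads between such genes by estimate, and KLK9, at 278 counts in PEO-4 beside 9648 for KLK8, is therefore uncertain.

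Within each gene a few transcripts held most of the PEO-4 signal. KLK7-205, a protein-coding transcript of 1955 bases, held 85.1% to 88.2% of the TPM of KLK7. KLK5-201 held 68.9% ± 4.95 of KLK5 and KLK5-203 23.4% ± 3.42 (SD, n = 4). KLK6 was divided among KLK6-202 at 45.2% ± 1.76, KLK6-203 at 31.2% ± 3.68 and KLK6-201 at 23.0% ± 2.81, which start at different positions. KLK9-202 held 94.6% ± 6.67 of KLK9 and KLK11-204 73.4% ± 1.94 of KLK11. All of these are annotated as protein-coding.

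KLK10 and KLK8 were less simple. KLK10-206, a transcript annotated for nonsense-mediated decay and starting inside the gene, held 49.9% ± 1.83 of the TPM of KLK10 (SD, n = 4), against 32.2% ± 0.888 for the protein-coding KLK10-202. By expected counts the order of these transcripts was turned, with 38.7% ± 1.44 for KLK10-206 and 57.1% ± 1.18 for KLK10-202, which at 2984 bases is the longer. KLK10-204, of 549 bases, held 10.1% of the TPM but 2.17% of the counts. KLK8 had all 11 of its annotated transcripts above 0 in PEO-4, and KLK8-203, of 555 bases, led with 45.7% ± 4.27 of the TPM. KLK8-205, of 267 bases, held 11.0% of the TPM and 1.84% of the counts, whereas KLK8-211, of 1324 bases, held 4.402% of the TPM and 12.4% of the counts. Transcripts that share most of their exons were told apart by RSEM's estimate from short paired reads.

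**Figure D3:**
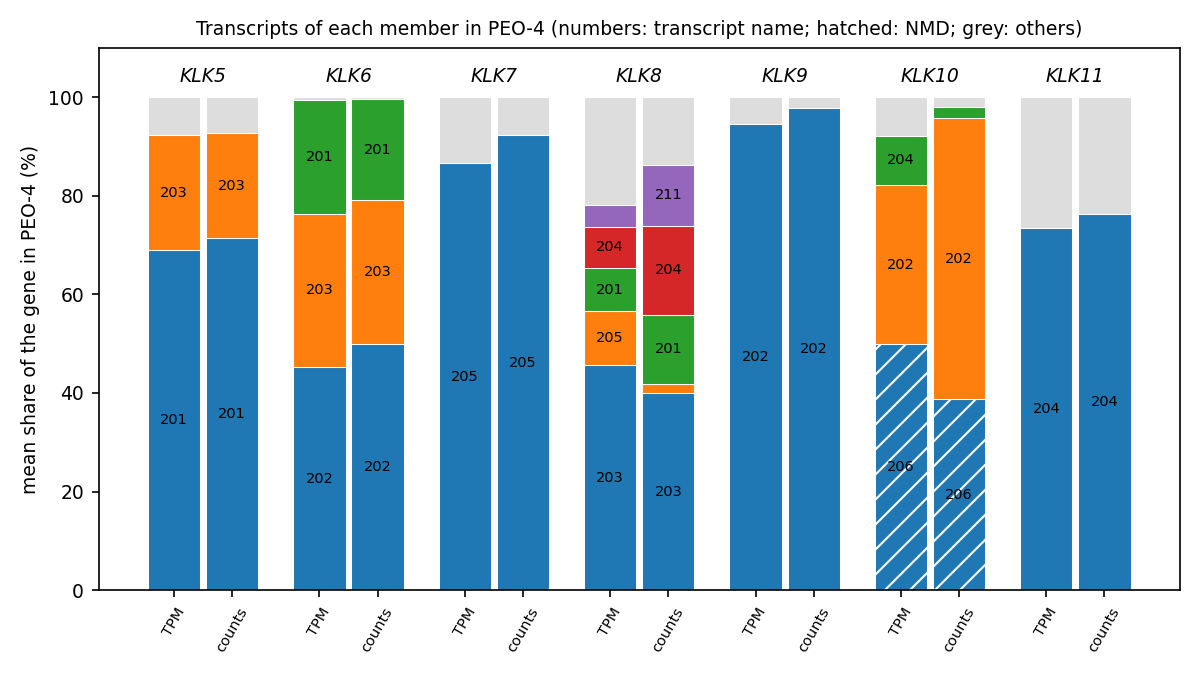
Mean share, in percent, of each transcript in its gene in PEO-4, by TPM (left bar of a pair) and by expected count (right bar), for the 7 members that passed the filter. Transcripts that held at least 10% by either measure carry the number of their name, the hatched one is annotated for nonsense-mediated decay and the others are in grey. KLK7 and KLK9 rest mostly on a single transcript, and in KLK10 the leading transcript changes with the measure.

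The 250 bases before the starts that these transcripts use are shown because the genes were on together in PEO-4. RefSeq windows (GRCh38.p14) were matched for 9 of the 10 genes, KLK8 being the exception. Of the TPM of KLK7 in PEO-4, 87.9% came from transcripts that begin at the start behind its window. For KLK5 it was 68.9%, for KLK11 80.4% and for KLK10 32.2%. Capitals mark matches on either strand to GGGCGG, the GC box, and to CCAAT, the CCAAT box. The windows are given 5′ to 3′ on the minus strand.
KLK5, chr19:50953039-50953288, minus strand: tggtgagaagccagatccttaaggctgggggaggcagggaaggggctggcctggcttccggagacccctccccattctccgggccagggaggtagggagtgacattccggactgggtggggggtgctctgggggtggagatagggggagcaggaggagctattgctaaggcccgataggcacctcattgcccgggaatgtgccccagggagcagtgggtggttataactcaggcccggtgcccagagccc
KLK7, chr19:50983918-50984167, minus strand: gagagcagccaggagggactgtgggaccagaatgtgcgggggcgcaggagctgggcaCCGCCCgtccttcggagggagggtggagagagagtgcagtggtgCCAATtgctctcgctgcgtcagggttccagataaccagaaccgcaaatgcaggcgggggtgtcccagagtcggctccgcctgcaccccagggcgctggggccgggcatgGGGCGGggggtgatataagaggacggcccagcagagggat
KLK10, chr19:51019710-51019959, minus strand: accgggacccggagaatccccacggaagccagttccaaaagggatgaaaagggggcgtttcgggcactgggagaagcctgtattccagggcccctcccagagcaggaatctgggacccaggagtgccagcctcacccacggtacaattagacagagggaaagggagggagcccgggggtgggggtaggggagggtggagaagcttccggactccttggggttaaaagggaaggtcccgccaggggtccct
KLK11, chr19:51026617-51026866, minus strand: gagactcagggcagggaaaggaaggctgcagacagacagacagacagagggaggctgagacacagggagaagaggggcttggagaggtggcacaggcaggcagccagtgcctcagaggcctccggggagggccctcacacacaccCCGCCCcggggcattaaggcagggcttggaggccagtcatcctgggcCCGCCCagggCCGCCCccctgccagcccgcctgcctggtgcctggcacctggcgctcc

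The window of KLK7 held a CCAAT match and 2 GC box matches, that of KLK11 3 GC box matches, and those of KLK5 and KLK10 neither. GGGCGG was in 42.6% of all 35116 RefSeq windows of this length and CCAAT in 32.0%. TATAAA (10.7% of all windows), the AP-1 motif TGANTCA (6.57%), the Grainyhead motif AACCNGTT (1.49%) and the steroid receptor half-site AGAACA (12.4%) were searched on both strands, and none was in any of the 16 windows of the members. The matches printed do not overlap one another. The KLK7 window held 15 CpG dinucleotides and the KLK5, KLK10 and KLK11 windows 6, 9 and 7, beside a median of 11 over all windows. GC box matches were in 10 of the 16 windows, those of KLK6, KLK7, KLK9, KLK11, KLK13 and KLK14, and in no window of KLK5, KLK10 or KLK12. Windows of KLK7, of KLK13 and of KLK14 overlap in part, so the same site can be counted in more than 1 of them. No relation between these matches and the levels was tested.

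The rest of the cluster was near 0 too. The 6 other genes of the cluster lie before KLK5 and none passed the filter. KLK1, tissue kallikrein, had 4, 8, 6 and 8 counts in PEO-4, none in SKOV-3 and 3, 22, 10 and 19 counts in T1074, which made it the only gene of the cluster whose mean CPM was highest in T1074 with counts in all 4 libraries. KLK3, the gene of prostate-specific antigen, had 2 to 10 counts in each PEO-4 library, none in SKOV-3 and 1 count in T1074. KLK4, which borders KLK5, had 2 counts in PEO-4 and none elsewhere, and KLK2, KLK15 and the pseudogene KLKP1 had at most 9 counts in a line.

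Transcripts from the opposite strand of the block were few. ENSG00000267879, a noncoding gene on the plus strand opposite KLK6 to KLK9, was at 0.351, 0.265, 0.580 and 0.562 CPM in PEO-4, at 0 in SKOV-3 and at 1 count in T1074. Its PEO-4 level was 65.3-fold that of T1074 (95% counting interval 11.4 to 2610, counting error only). No p is given, since this gene overlaps the members and passed the filter through PEO-4. ENSG00000268739, inside KLK10 on the plus strand, had 33.4 counts in PEO-4 and none in the other lines. The libraries were directional, but the strand setting of RSEM is not given in the sources used here, so reads of KLK genes assigned to these genes cannot be told apart from their own.

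Outside the cluster, 32 protein-coding genes lie within 500 kb, of which 11 were tested. In PEO-4 against T1074, 2 of the 11 were higher, 4 lower and 5 did not pass, with a median log2 difference of -0.28, beside a median of -0.01 over all genes. Of all genes tested in that comparison, 36.3% were called higher and 37.8% lower. CTU1, a tRNA-modifying enzyme and the nearest tested gene beyond KLK14, was at 18.6 ± 2.34 CPM in PEO-4, 8.59 ± 0.923 in SKOV-3 and 15.7 ± 5.27 in T1074 (SD, n = 4), and PEO-4 did not pass the test against T1074 (adjusted p = 0.282). CLEC11A, a secreted growth factor on the KLK1 side, fell in PEO-4, at 1.22 ± 0.0672 CPM against 13.9 ± 5.78 CPM in T1074 (log2 difference -3.51 ± 0.25 SE, adjusted p = 1.39e-08). VSIG10L rose, at 4.44 ± 0.367 CPM in PEO-4 against 0.726 ± 0.235 CPM in T1074 (2.60 ± 0.22 SE, adjusted p = 7.15e-08), and GARIN5A rose by 3.51 ± 0.32 on the same scale.

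Because kallikrein-related peptidases are activated by proteolysis, cell surface and plasminogen-system proteases were taken as a list of 21 genes. Of 13 tested, 11 rose in PEO-4 against T1074, with a median log2 difference of 7.50 over the 13, and 11 rose against SKOV-3, with a median of 5.36. Over all genes tested the median was -0.01 against T1074 and 0.05 against SKOV-3. The shares called higher and lower over all genes were 36.3% and 37.8% against T1074, and 38.5% and 36.7% against SKOV-3. Some of the 13, such as TMPRSS13 with no count in SKOV-3 and 2 counts in T1074, passed the filter through PEO-4. Their direction was thereby largely set, which limits the reading of these counts and medians. ST14, which encodes matriptase, a protease that can activate KLK5, was at 242, 329, 273 and 246 CPM in PEO-4, against 0.0502, 0.115, 0.147 and 0.0249 CPM in T1074. No library of another line reached 1 CPM of ST14, and its log2 difference was 11.52 ± 0.29 against T1074 (SE, adjusted p = 6.47e-13) and 8.62 ± 0.23 against SKOV-3 (adjusted p = 1.40e-12).

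HPN, which encodes hepsin, was at 30.9 to 31.6 CPM in PEO-4, with 0.0585 CPM or less in SKOV-3. Its 7 counts in T1074 came from replicate 2 alone (log2 difference 9.26 ± 0.46 SE against T1074). HPN passed the filter through PEO-4, so no p is given. PRSS21, a membrane-anchored serine protease of testis, was at 30.8 to 33.0 CPM in PEO-4, with no count in SKOV-3, and so at least 530-fold higher there. TMPRSS4, another transmembrane protease, was at 12.7, 44.7, 50.4 and 13.4 CPM in PEO-4, with the same high replicates 2 and 3 as KLK9, KLK10 and KLK11. PLAU, the urokinase gene, named after its values were seen, fell in PEO-4 to 3.79, 9.31, 10.9 and 3.70 CPM, against 53.4, 29.4, 89.0 and 104.6 CPM in T1074 (log2 difference -3.32 ± 0.43 SE, adjusted p = 6.60e-06). PLAT, the tissue plasminogen activator, likewise named after its values were seen, rose in PEO-4, at 195 ± 17.7 CPM against 30.8 ± 10.3 CPM in T1074. PLG, the plasminogen gene, named for the same reason, had 6 counts in PEO-4, 92 in SKOV-3 and 2 in T1074. Its log2 difference in PEO-4 was 1.19 ± 0.81 SE against T1074 and -3.59 ± 0.45 SE against SKOV-3. PLG passed the filter through SKOV-3, so no p is given. In SKOV-3 against T1074, 4 of the 13 rose, 2 fell and 7 did not pass, beside 33.3% of all genes called higher and 34.5% lower. That comparison says little about genes that passed the filter through PEO-4, such as HPN with 7 counts in SKOV-3 and 7 in T1074.

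Among inhibitors of these peptidases, 10 of 26 were tested, and 6 rose and 4 fell in PEO-4 against T1074, beside 36.3% of all genes called higher and 37.8% lower. SPINK5 itself had 1 count in PEO-4 and none in the other lines, and none of the 7 SPINK genes of the list passed the filter, a point noted after the values were seen. SPINT1 and SPINT2, which encode the Kunitz inhibitors HAI-1 and HAI-2 of matriptase and hepsin, both rose in PEO-4. SPINT1 was at 94.3 to 108 CPM in PEO-4, 8.38 to 11.4 CPM in SKOV-3 and 5.17 to 9.18 CPM in T1074 (log2 difference of PEO-4 against T1074 3.85 ± 0.16 SE, adjusted p = 7.07e-11). SPINT2 was high in both cancer lines, at 352 ± 7.26 CPM in PEO-4 and 233 ± 25.5 in SKOV-3, against 1.90 ± 0.692 CPM in T1074 (SD, n = 4).

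SLPI, the secretory leukocyte peptidase inhibitor, was at 37.5 ± 6.60 CPM in PEO-4, 289 ± 21.1 in SKOV-3 and 0.151 ± 0.170 in T1074, and PEO-4 was lower than SKOV-3 by a log2 difference of -2.95 ± 0.23 (SE, adjusted p = 3.30e-08). SERPINA3, the serpin known as antichymotrypsin, was at 0.243 ± 0.121 CPM in PEO-4, 14.3 ± 2.39 in SKOV-3 and 0.748 ± 0.497 in T1074. Relative to SKOV-3, 4 of the 10 inhibitors were higher in PEO-4, 5 lower and 1 did not pass, beside 38.5% of all genes called higher and 36.7% lower.

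**Figure D4:**
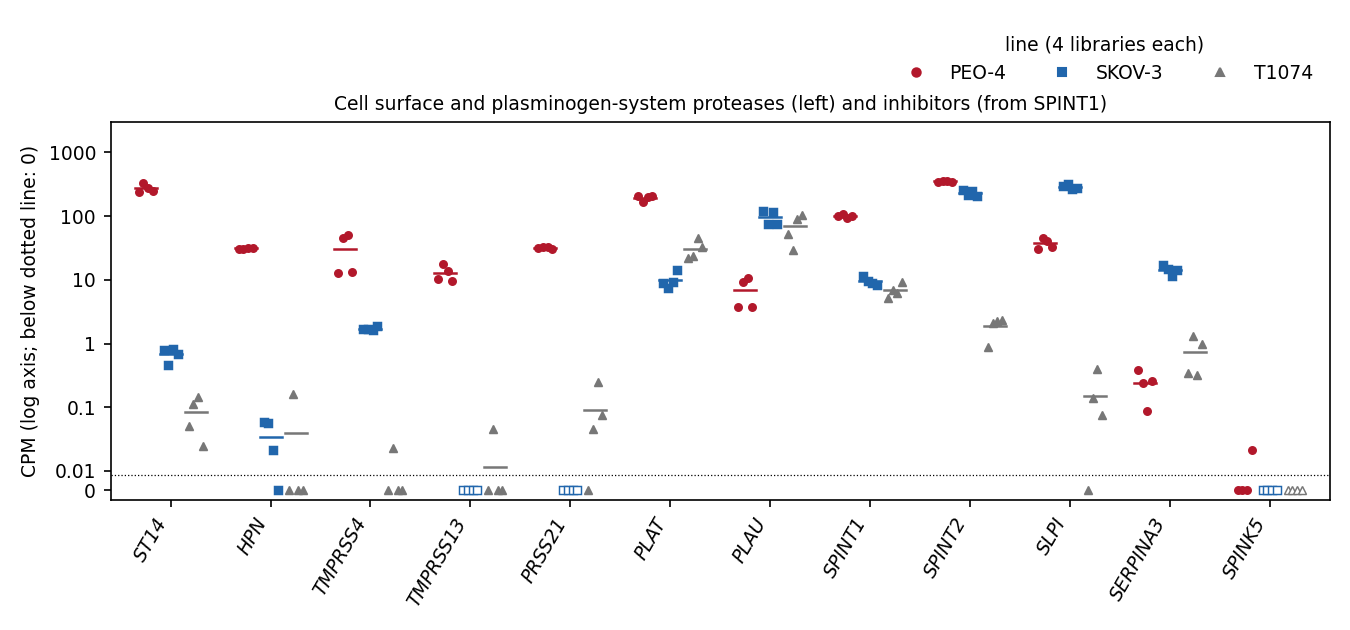
CPM on a log axis, with 0 below the dotted line, of proteases (ST14 to PLAU) and inhibitors (SPINT1 to SPINK5) in each library of PEO-4, SKOV-3 and T1074. Points are libraries and bars are means of at least 0.01 CPM. ST14, HPN, PRSS21 and SPINT1 lie highest in PEO-4, PLAU lowest in PEO-4, and SPINK5 has a single count.

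Known substrates and receptors moved in both directions. Of 20 tested among 27, 7 rose, 11 fell and 2 did not pass in PEO-4 against T1074, with a median log2 difference of -1.75, beside 36.3% of all genes called higher and 37.8% lower. F2RL1, which encodes PAR2, a receptor that trypsin-like members of the family can switch on, was at 28.0 to 35.4 CPM in PEO-4, 21.8 to 29.7 CPM in SKOV-3 and 16.1 to 29.5 CPM in T1074, a gene named after its values were seen. The ranges overlapped, and the difference of PEO-4 against T1074, 0.41 ± 0.16 (SE, adjusted p = 0.0365), lost the threshold without T1074 replicate 1 or 2, at 0.27 and 0.39. F2R, the thrombin receptor PAR1, chosen in the same way, was lower in PEO-4, at 2.67 to 3.31 CPM against 138 to 220 CPM in T1074.

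FN1, fibronectin, a matrix protein that several members can cut, fell in PEO-4 to 3.84 ± 0.212 CPM, against 1671 ± 317 in SKOV-3 and 1384 ± 531 in T1074 (SD, n = 4). CDH1, E-cadherin, was at 135 to 157 CPM in PEO-4, 22.1 to 29.5 CPM in SKOV-3 and 0.274 to 0.452 CPM in T1074 (log2 difference of PEO-4 against T1074 8.75 ± 0.18 SE, adjusted p = 3.06e-13). DSC1, desmocollin 1, a corneodesmosome protein cut during desquamation, was at 4.49 to 5.59 CPM in PEO-4, at 0 in SKOV-3 and at 0.0995 to 0.441 CPM in T1074 (4.19 ± 0.36 SE against T1074). DSC1 passed the filter through PEO-4, so no p is given. L1CAM, an adhesion molecule, was at 0.866 ± 0.207 CPM in PEO-4, 186 ± 32.6 in SKOV-3 and 33.1 ± 17.5 in T1074.

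KLK5 and KLK7 are genes of the cornified layer, so 32 genes of cornification were read beside them. Of 12 tested, 11 rose and 0 fell in PEO-4 against T1074, with a median log2 difference of 6.07, and 10 rose and 1 fell against SKOV-3. Over all genes tested, 36.3% were called higher and 37.8% lower against T1074, and 38.5% higher and 36.7% lower against SKOV-3. Some of the 12, such as CALML5 with no count in SKOV-3 and 6 counts in T1074, passed the filter through PEO-4. TGM1, the transglutaminase that cross-links the cornified envelope, was at 324, 347, 282 and 326 CPM in PEO-4, against 1.86, 3.02, 4.29 and 2.39 CPM in T1074 (6.76 ± 0.23 SE, adjusted p = 8.55e-12). EVPL, envoplakin, was at 87.5 to 99.2 CPM in PEO-4, at most 0.707 CPM in SKOV-3 and at most 0.224 CPM in T1074. FLG, the filaggrin gene, was at 8.29 to 9.95 CPM in PEO-4, against 1 count in SKOV-3 and 0.298 to 1.51 CPM in T1074 (3.46 ± 0.40 SE against T1074, adjusted p = 1.92e-06).

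The other 20 genes of that list did not pass the filter. Among them, named after their values were seen, KRT1 and LORICRIN had no count in PEO-4, and IVL, involucrin, was at 0.146, 0.482, 0.236 and 0.108 CPM in PEO-4, with no count in the other lines. KRT16, a keratin of activated keratinocytes, was the gene that fell against SKOV-3, at 1.14, 11.1, 4.96 and 0.865 CPM in PEO-4 and 21.1, 10.8, 13.0 and 5.34 CPM in SKOV-3, ranges that overlap (-1.47 ± 0.62 SE, adjusted p = 0.0445). That call was lost without any one of PEO-4 replicates 1, 3 and 4, SKOV-3 replicates 1 to 3 or T1074 replicates 1 and 2, at -1.55 to -1.07.

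Among 17 tested transcription factors of stratified epithelium, 15 rose in PEO-4 against T1074, 1 fell and 1 did not pass, with a median log2 difference of 4.57. Over all genes tested, 36.3% were called higher and 37.8% lower in that comparison. Some of the 17, such as OVOL1 with 8 counts in SKOV-3 and 2.72 in T1074, passed the filter through PEO-4. Their direction was thereby largely set, which limits the reading of this count and median. GRHL2, a Grainyhead factor of epithelial cells, was at 124, 130, 112 and 123 CPM in PEO-4. It was at 0 in SKOV-3, so at least 2020-fold higher in PEO-4, and at 0.0458 CPM or less in T1074 (log2 difference 11.97 ± 0.22 SE against T1074). GRHL2 passed the filter through PEO-4, so no p is given. OVOL1, a zinc finger factor of epidermis, was at 26.5, 58.5, 47.4 and 27.7 CPM in PEO-4, again higher in replicates 2 and 3, and at most 0.0780 CPM in any other library. TFAP2C, an AP-2 factor, was at 45.0 to 56.6 CPM in PEO-4, at most 0.236 CPM in SKOV-3 and at most 0.0687 CPM in T1074. KLF4, the 1 factor that fell and so named after its values were seen, was at 14.4 ± 1.51 CPM in PEO-4, 71.3 ± 8.50 in SKOV-3 and 24.1 ± 9.70 in T1074 (-0.75 ± 0.24 SE against T1074, adjusted p = 0.0117), a call lost without PEO-4 replicate 3, at -0.55. In SKOV-3 against T1074, 10 of the 17 rose, 5 fell and 2 did not pass, beside 33.3% of all genes called higher and 34.5% lower. That comparison says little about genes that passed the filter through PEO-4, such as GRHL2.

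Several KLK genes respond to steroid hormones in other tissues, a relation that was not tested here, and all 13 steroid and nuclear receptors of the list were tested. In PEO-4 against T1074, 7 rose, 5 fell and 1 did not pass, with a median log2 difference of 0.68. The shares over all genes tested were 36.3% higher and 37.8% lower. ESR1, an estrogen receptor, was at 217 to 253 CPM in PEO-4, and also at 127 to 174 CPM in SKOV-3, against 0.301 to 0.796 CPM in T1074. PGR, the progesterone receptor, was at 63.4, 9.65, 12.8 and 62.8 CPM in PEO-4, high in replicates 1 and 4 as KLK6 was, and at 5.73 ± 1.26 CPM in T1074. NR3C2, the mineralocorticoid receptor, fell in PEO-4 to 1.54 ± 0.263 CPM, against 15.1 ± 4.17 CPM in T1074.

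**Figure D5:**
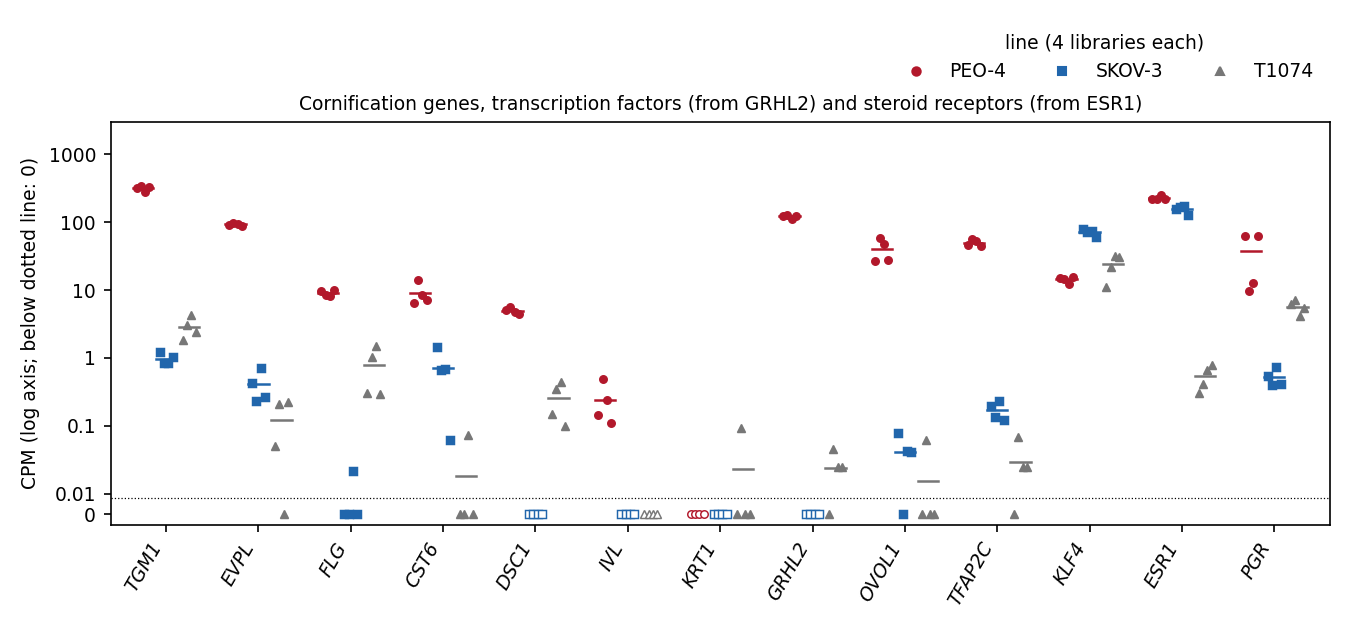
CPM on a log axis, with 0 below the dotted line, of cornification genes (TGM1 to KRT1, with DSC1 of the substrate list), transcription factors (GRHL2 to KLF4) and steroid receptors (ESR1, PGR) in each library of PEO-4, SKOV-3 and T1074. Points are libraries and bars are means of at least 0.01 CPM. TGM1 and GRHL2 lie highest in PEO-4, ESR1 is high in both cancer lines, and PGR in PEO-4 splits into a pair near 63 CPM and a pair at 9.65 and 12.8 CPM.

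The profile of KLK5 to KLK11 over the 12 libraries, high in PEO-4 and at or near 0 in the other lines, was shared by many genes. Of the protein-coding genes outside the cluster, 106 had a Pearson r of at least 0.99 with the mean profile of the 7 genes (log2 CPM, prior count 2). The values share libraries, depth and scaling, and the lines form separate groups of points, so no p is given. The 10 most alike were XG, CLDN8, CASQ2, SPESP1, PABPC5, OBP2B, MAB21L4, IGF1, KRT4 and ALDH3B2, at r of 0.9987 to 0.9995. CLDN8, a claudin of tight junctions, averaged 7.17 ± 2.08 CPM over the PEO-4 libraries (SD, n = 4) and had no count in SKOV-3 or T1074. KRT4, a keratin of stratified mucosa, was at 255 ± 109.5 CPM in PEO-4 and had no count in T1074. OBP2B was also among the 10 most like KLK7 and the 10 most like KLK6 taken singly, while PNPLA5, at 1.19 ± 0.246 CPM in PEO-4, was the nearest to KLK6. With Spearman correlation 5 of the 10 genes nearest the mean profile stayed among the 10 most alike. For KLK6 taken singly 5 of 10 stayed, and for KLK7 only 2 of 10.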

How the data were processed

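The authors sequenced total RNA of 12 libraries, 4 per cell line, after rRNA depletion with a directional kit (2x75 bases), and, according to the paper and to the processing notes of the submitters, used bcl2fastq 2.20.0.422, Trimmomatic 0.39, STAR 2.7.3a and RSEM 1.3.1 on hg38 with Gencode 39. The expected counts that the authors deposited per transcript are RSEM's estimates and are not normalized. The TPM that the authors deposited divides the same estimate by effective transcript length and scales it to a fixed sum, so TPM of a gene moves with how reads were divided among transcripts of unlike length. The labels give the molecule as protein, whereas the values are RNA-seq. RSEM's strand setting is not given in the sources used here.

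Expected counts were summed by gene and rounded to whole numbers. Of 61533 gene IDs, 61415 matched GENCODE 44. Genes passing filterByExpr by line, 19898 in all, were tested with the edgeR 4.0.16 quasi-likelihood test in R 4.3.3, with TMM factors and 1 fit of 12 libraries, and p-values were adjusted over all of them by Benjamini and Hochberg (threshold 0.05). Standard errors (SE) belong to the log2 fold change. The same fit was also run on simulated counts with known changes, and its outcome is not reported here. CPM uses TMM factors. Bounds take 3 counts per library, and intervals are exact conditional 95% intervals. The members and the gene lists were chosen with earlier results of these data known. Per list, genes were named from the 4 largest called changes of each comparison with a mean of at least 1 CPM in a line, and other names are said to be chosen after their values were seen. In addition, all KLK genes, protein-coding genes within 500 kb, transcripts with at least 10% of their gene and the 10 most similar genes could be named. Alternatives were RLE size factors, library size only, DESeq2 1.42.0, other filters, 8 libraries of a pair, a replicate block, an adjusted p of 0.01 and leaving out each library. Libraries of a line differed by more than sampling noise. Promoter windows are RefSeq's. Some genes of the lists are counted but not reported here by name.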

Additional observations from a re-analysis of the deposited data

Results flagged for a closer look

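In a group of 4 libraries, a library was marked when its gap to the nearest other, as a share of the range of the group, exceeded Dixon's 95% critical value. Of 207 groups looked at, 31 were marked. The nominal rate of about 1 in 20 cannot be set against that number. A group with counts in a single library always has a ratio of 1.0, and a group of equal values is never marked. The ratio was 1.0, with a single library above 0, for KLK7, KLK8 and FLG in SKOV-3 and for KLK15, KLK2, KLK4 and C19orf81 in PEO-4. It was also 1.0 in T1074 for KLK11, KLK12, KLK13, KLK3, KLK2, HPN, TMPRSS4, TMPRSS13, KRT6A, CST6, OVOL1, BARX2, SYT3 and ENSG00000267879. KLK10 in T1074 had a ratio of 0.972, with replicate 4 at 0.199 CPM and the others at 0.0458 to 0.0502 CPM. In PEO-4 the ratio was 0.929 for IL1B and 0.922 for ESR1. In SKOV-3 it was 0.851 for FN1, 0.868 for THRB, 0.850 for THRA and 0.840 for VSIG10L. In T1074 it was 0.884 for GARIN5A, 0.902 for C19orf81 and 0.907 for CLEC11A, which was at 22.6 CPM in replicate 4. Of the 18 groups marked in T1074, replicate 2 stood apart in 10.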

How the results depend on the processing

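The counts of genes called over all genes kept within 1.5 times the main value under every alternative run, and 470 of 480 values that answer a comparison stayed the same. Among the cornification genes, 17 were called in PEO-4 against T1074 and 18 in PEO-4 against SKOV-3 with no filter on low counts, against 11 each with it. In SKOV-3 against T1074, 5 were called with only the 8 libraries of the pair and 6 at an adjusted p of 0.01, against 10. Per total of protein-coding counts, KLK5, KLK6, KLK7, KLK8, KLK9 and KLK10 were at 89.1, 62.4, 412, 83.2, 2.39 and 67.7 CPM in PEO-4, since the total is smaller. HPN in SKOV-3 against T1074 lay between -0.86 and 3.70 on the log2 scale over the libraries left out, with 3.70 without T1074 replicate 2, which holds all of its T1074 counts. Of the settings run for the other genes, 51 lost and 11 gained the threshold. Per kb of the longest transcript KLK9 and KLK11 changed places.

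Libraries with the same replicate number did not deviate together (correlations of -0.079 to 0.069), and with a replicate block 14413, 13094 and 14658 genes were called in PEO-4 against T1074, SKOV-3 against T1074 and PEO-4 against SKOV-3, against 14749, 13498 and 14963 without it. Depth limits KLK12, KLK13 and KLK14, whose counts lay near the floor in every line.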
